A study of Homo sapiens with 8 samples.

Results

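The RUNX family genes are the 3 genes of the RUNX transcription factors, RUNX1, RUNX2 and RUNX3, and CBFB, the gene of their common partner. Their chromatin was read from ATAC-seq, in which a transposase inserts adapters into DNA that is not packed into nucleosomes, of MCF10A cells, an immortalised and non-tumorigenic human mammary epithelial line. The cells had been given solvent, or TGFβ1 at 5 ng/ml for 6, 24 or 72 h, and all groups are the same line with no genetic change named. TGFβ1 is a cytokine that takes these cells through an epithelial-mesenchymal transition. Each of the 4 conditions had 2 libraries, 8 in all, but the deposited data are 1 peak list per condition, called on both libraries together. No difference given here therefore has a replicate check, no p-value is given. A target depth is named in the study's methods, but read totals are absent from the files analysed here, and the depth reached in each condition is therefore not known. Shares are given with 95% Wilson intervals, which express the counting error and nothing more.

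Peaks of the 4 lists that shared at least 1 bp were merged into 126658 regions. Members are the 193 regions that overlap the GENCODE 44 body of one of the 4 genes or the 100 kb on either side of it, on GRCh38. RUNX1 has 106 of them, RUNX2 32, RUNX3 19 and CBFB 36. A region is distal when it lies more than 3 kb from every annotated transcription start site (TSS), which holds for 89 of the regions at RUNX1, 28 at RUNX2, 13 at RUNX3 and 10 at CBFB, and for 83134 regions in all. RUNX1 was selected on its number of distal peaks gained at 72 h in these lists, so that its counts of gained regions are a description and support nothing on their own.

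RUNX proteins bind DNA through their Runt domain, and CBFβ, the product of CBFB, does not touch DNA itself but strengthens that binding. RUNX1 is known for blood stem cell formation and is also active in the mammary epithelium, RUNX2 directs bone formation, and RUNX3 acts in T cells, sensory neurons and epithelia. RUNX factors can bind receptor-activated SMADs, the transcription factors that carry the TGFβ signal into the nucleus. Each RUNX gene is transcribed from a distal promoter, P1, and a proximal promoter, P2, which give proteins that differ at the amino terminus.

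Regions without a solvent peak that had the largest area at 72 h are shown first by their sequence, 201 bases around the summit of the largest peak, on the plus strand of GRCh38. Capitals mark 3 kinds of motif, searched on both strands: the AP-1 motif (TGACTCA or TGAGTCA), the RUNX motif (TGTGGT or TGCGGT, which read ACCACA and ACCGCA on the other strand) and the SMAD palindrome (GTCTAGAC or GTCTGGAC). A match is a description of the letters and not evidence of binding. Of the 5 such regions named at RUNX1, the 3 with a motif are shown, and the other two hold none of these motifs. They lie in introns of RUNX1 and are named by the distance of their summit from the P1 start, with minus signs for the upstream side.
RUNX1 -111 kb (chr21:35160038-35160238): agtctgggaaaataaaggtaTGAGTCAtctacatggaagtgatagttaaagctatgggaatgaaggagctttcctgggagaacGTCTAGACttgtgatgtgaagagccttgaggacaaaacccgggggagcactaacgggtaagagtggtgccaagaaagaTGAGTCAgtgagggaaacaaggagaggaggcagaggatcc
RUNX1 +226 kb (chr21:34823041-34823241): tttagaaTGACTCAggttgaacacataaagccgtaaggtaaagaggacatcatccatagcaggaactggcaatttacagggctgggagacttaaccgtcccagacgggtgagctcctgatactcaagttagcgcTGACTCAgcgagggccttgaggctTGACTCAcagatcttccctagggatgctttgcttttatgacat
RUNX1 -303 kb (chr21:35352145-35352345): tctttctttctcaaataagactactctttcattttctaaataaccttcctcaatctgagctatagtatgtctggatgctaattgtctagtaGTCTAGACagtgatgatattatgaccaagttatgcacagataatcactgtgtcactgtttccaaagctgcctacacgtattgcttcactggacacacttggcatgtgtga
The first of them holds 2 AP-1 motifs and a SMAD palindrome, the next 3 AP-1 motifs, and the last a SMAD palindrome. None of these 3 windows holds a RUNX motif. At the relatives, the 2 leading gained regions of RUNX3 and the first of RUNX2 and of CBFB are shown, together with the RUNX3 region of the largest rise from a solvent peak, at +9.69 kb, which was chosen after its values were seen.
RUNX3 -66 kb (chr1:25030873-25031073): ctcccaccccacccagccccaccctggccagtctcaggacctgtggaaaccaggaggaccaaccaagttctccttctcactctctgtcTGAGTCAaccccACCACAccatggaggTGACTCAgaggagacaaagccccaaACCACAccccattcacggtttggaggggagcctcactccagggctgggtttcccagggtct
RUNX3 +17.6 kb (chr1:24947357-24947557): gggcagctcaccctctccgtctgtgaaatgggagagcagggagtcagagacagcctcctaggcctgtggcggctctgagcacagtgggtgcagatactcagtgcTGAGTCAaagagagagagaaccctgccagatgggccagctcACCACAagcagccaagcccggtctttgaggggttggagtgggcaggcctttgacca
RUNX3 +9.69 kb (chr1:24955220-24955420): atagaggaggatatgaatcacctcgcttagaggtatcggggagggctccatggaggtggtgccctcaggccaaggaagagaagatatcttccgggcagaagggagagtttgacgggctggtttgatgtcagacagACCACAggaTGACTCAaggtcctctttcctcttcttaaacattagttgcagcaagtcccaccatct
RUNX2 +297 kb (chr6:45625478-45625678): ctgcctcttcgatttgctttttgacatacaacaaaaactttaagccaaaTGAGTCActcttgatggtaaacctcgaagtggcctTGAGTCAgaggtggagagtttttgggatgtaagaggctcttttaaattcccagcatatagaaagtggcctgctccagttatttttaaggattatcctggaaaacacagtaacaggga
CBFB +86.6 kb (chr16:67115667-67115867): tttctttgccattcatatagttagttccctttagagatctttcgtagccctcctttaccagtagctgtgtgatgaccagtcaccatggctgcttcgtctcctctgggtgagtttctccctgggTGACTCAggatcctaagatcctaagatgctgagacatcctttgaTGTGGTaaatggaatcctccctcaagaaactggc
The 3 RUNX3 windows and the CBFB window each combine RUNX and AP-1 motifs, with 2 of each in the RUNX3 -66 kb window. The RUNX2 window holds 2 AP-1 motifs and no RUNX motif. The leading gains not printed differ from these. That of RUNX2, at +109 kb, holds 1 RUNX motif and no AP-1 motif. That of CBFB, at -57.6 kb, holds 1 AP-1 motif and no RUNX motif. Of the 4 RUNX2 regions gained at 72 h, 2 held a RUNX motif and 1 an AP-1 motif.

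Peaks are measured by their AUC, the area that the peak caller found above its significance threshold, summed over the peaks of a region. To set the lists on one scale, each TGFβ1 list was scaled by its median ratio to solvent over regions within 3 kb of a TSS. The divisors were 1.36, 1.30 and 1.19 for the 6, 24 and 72 h lists. Ratios below are log2 ratios of scaled AUC to solvent unless called unscaled. A region is gained at a time when that list has a peak in it and the solvent list has none, and raised or lowered when it has a peak in both and the scaled ratio is past 1.5-fold.

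The label of the cells was checked on promoter peaks in the solvent list. All 10 mammary epithelial genes examined, among them the basal markers KRT5, KRT14 and TP63, had a promoter peak. The 10 include EPCAM and CDH1, which the study names as epithelial markers and which are not particular to basal cells. The promoter AUC of the 10 ran from 245 at TP63 and 357 at KRT14, close to the lists' lower limit of 200, to 20917 at LAMB3. Of 6 haematopoietic genes only CD34 (1603) and MYB (1766) had a promoter peak, while PTPRC, SPI1, GATA1 and TAL1 had none in any list. CD8A (1448) was the one T cell gene of 3 with a promoter peak, and SP7 (1192) and BGLAP (2928) were the bone and cartilage genes, 2 of 5. The peaks of these other cell types were thus larger than those of KRT14 and TP63. None of 3 endothelial genes (PECAM1, CDH5 and TEK) had a promoter peak.

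RUNX1 gained distal regions in each TGFβ1 list and lost none. Of its 89 distal regions, 45 had a peak in solvent, and 66, 80 and 83 did so after 6, 24 and 72 h. All 45 solvent regions kept a peak in the 3 TGFβ1 lists. Gained regions numbered 21, 35 and 38 at these times, which is 31.8% (21.8 to 43.8), 43.8% (33.4 to 54.7) and 45.8% (35.5 to 56.5) of the regions with a peak in either list. Over all distal regions the gained shares were 26.8%, 35.2% and 35.4%. The share at RUNX1 thus stood above the background at each time, but the background lay inside the interval at 6 and 24 h and just below its lower end at 72 h. RUNX1 was selected on its gains at 72 h, so its place above the background at that time supports nothing.

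**Figure D1:**
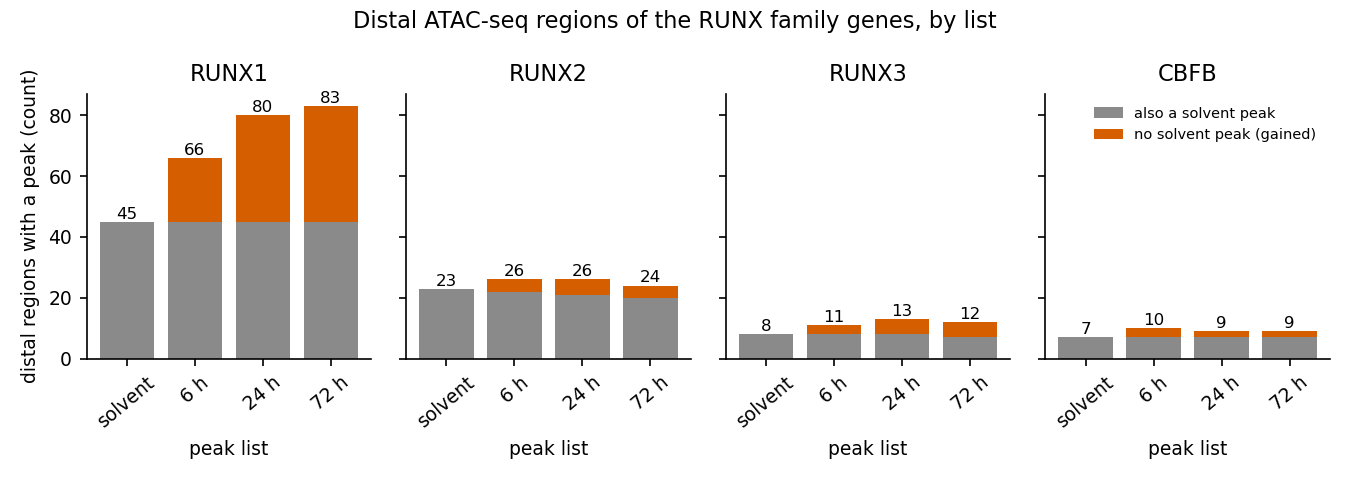
Number of distal regions with a peak in each list (bars, counts on a linear axis from 0), for the 4 genes, split by whether solvent also had a peak. RUNX1 goes from 45 regions in solvent to 83 at 72 h by added regions alone, while RUNX2 has 23 in solvent and 24 at 72 h.

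The gains at RUNX1 were spread over time. Of its 89 distal regions, 18 lacked a solvent peak and had one at each later time, 13 appeared at 24 and 72 h only, and 7 at 72 h only. Over all distal regions these patterns made up 16.8%, 9.35% and 5.73%, and at RUNX1 20.2%, 14.6% and 7.87%. Only 2 regions had a peak at 6 h alone, 3 at 24 h alone and 1 at 6 and 24 h. Of the 38 regions gained at 72 h, 18 (47.4%) already had a peak at 6 h and 31 (81.6%) at 24 h, against 53.7% and 80.4% of all gained distal regions. Their AUC at 72 h ran from 206 to 1369 with a median of 401, close to the lists' lower limit of 200 and to the median of 366 over all gained distal regions.

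The relatives had fewer distal regions and fewer gains. RUNX2 had a peak in 23 of its 28 distal regions in solvent, and in 26, 26 and 24 at 6, 24 and 72 h. It gained 4, 5 and 4 regions, a share of 14.8% (5.92 to 32.5), 17.9% (7.88 to 35.6) and 14.8% (5.92 to 32.5), below the background at each time, which lay outside the interval at 72 h alone. RUNX2 lost 1, 2 and 3 regions at these times, or 3.70%, 7.14% and 11.1%, where 0.595%, 1.34% and 2.38% of all distal regions were lost. RUNX3 lost 1 region at 72 h (7.69%), and CBFB none. RUNX3 went from 8 of 13 distal regions in solvent to 11, 13 and 12, with 3, 5 and 5 gained, or 27.3% (9.75 to 56.6), 38.5% (17.7 to 64.5) and 38.5% (17.7 to 64.5). CBFB had 7, 10, 9 and 9 of 10, with 3, 2 and 2 gained, or 30.0% (10.8 to 60.3), 22.2% (6.32 to 54.7) and 22.2% (6.32 to 54.7). At RUNX3 and CBFB, with few regions each, the background lay inside the interval at each time.

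The width of the windows differs and bears on the counts. GENCODE 44 draws the RUNX1 body over 1217 kb, because 1 transcript starts 955 kb upstream of P1, and its window is 1417 kb, against 536 kb for RUNX2, 266 kb for RUNX3 and 272 kb for CBFB. Per 100 kb of window, distal regions numbered 6.28 at RUNX1, 5.22 at RUNX2, 4.89 at RUNX3 and 3.68 at CBFB. Gained regions at 72 h numbered 2.68 per 100 kb at RUNX1, 1.88 at RUNX3, 0.746 at RUNX2 and 0.735 at CBFB. Of 1272 protein-coding genes with at least 20 distal regions in their window, RUNX1 had the most distal regions (89, median 24) and the most gained at 72 h (38, median 7), but 2.28% had a longer window, 13.4% had more gains per 100 kb and 10.5% a larger gained share. RUNX2 was in the lower part of the same genes, with 88.2% having a larger gained share. When the RUNX1 body was taken to end at P1, an alternative chosen after the data had been seen, 13 regions were gained at 72 h, 41.9% (26.4 to 59.2). The background of 35.4% lay inside this interval.

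List length also bears on the gains. With each list shortened to its peaks of largest AUC, as many as solvent had, RUNX1 gained 18 regions at 72 h, 28.6% (18.9 to 40.7), where the background was 17.8%. RUNX2 then gained 1 region, 4.17% (0.739 to 20.2). The RUNX1 share was again above the background and that of RUNX2 below it. These are the lists on which RUNX1 was selected, so its value here is a description and no support. The background lay just below the lower end of the RUNX1 interval and inside that of RUNX2.

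**Figure D2:**
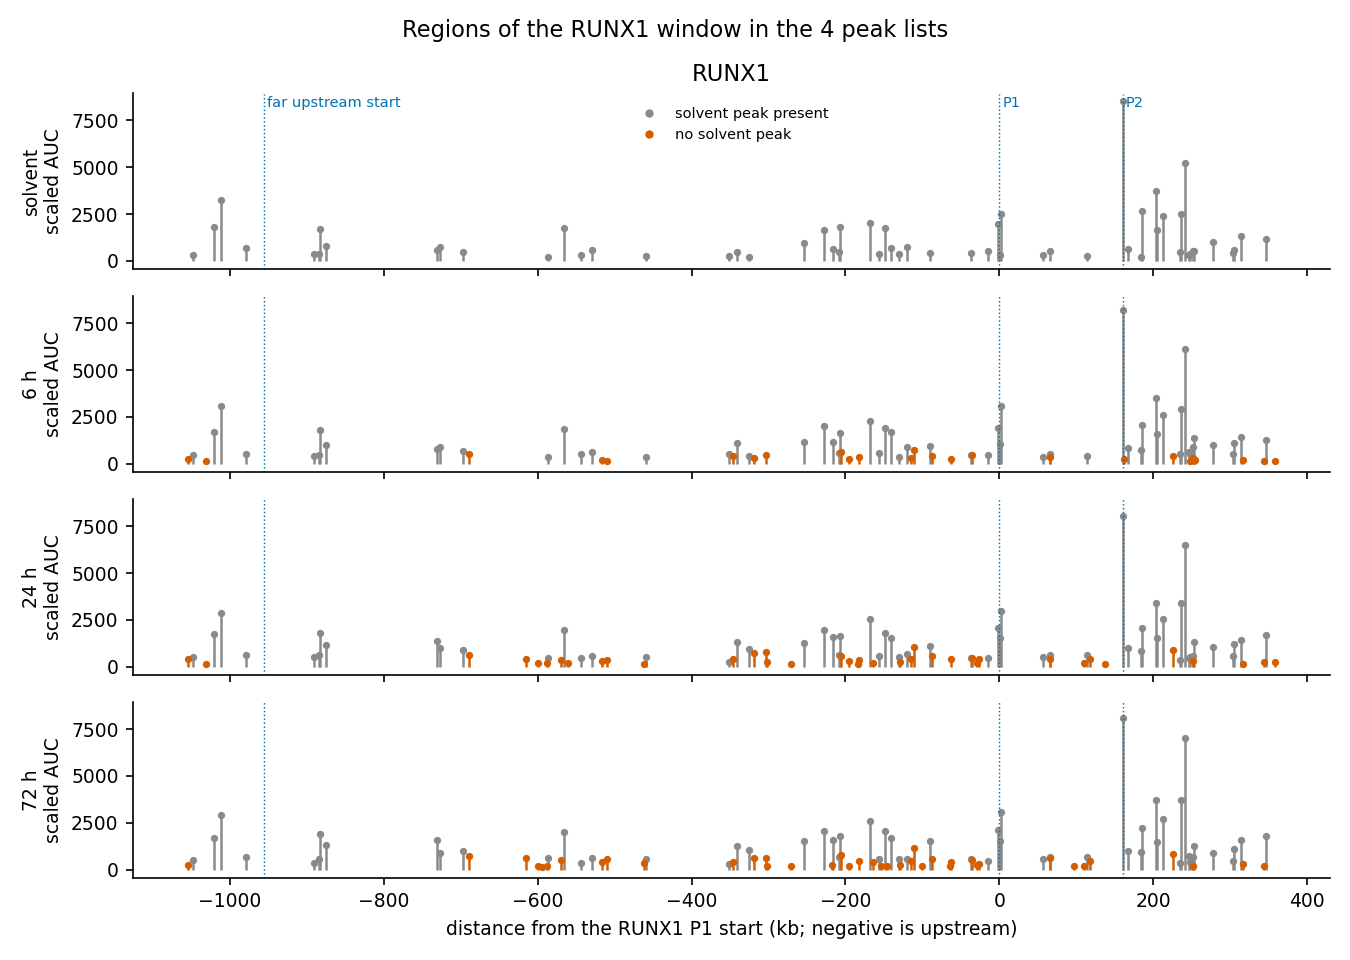
Each stem is a region of the RUNX1 window, placed by its distance from the P1 start in kb (negative is upstream), with its scaled AUC as height, in the solvent, 6, 24 and 72 h lists from top to bottom; dotted lines mark P1, P2 and the start of the far upstream transcript. Regions with no solvent peak stand mainly upstream of P1, where 30 of the 38 distal regions gained at 72 h lie, and are low beside the P2 promoter at 8494 in solvent. That stretch also holds 60 of all 89 distal regions of RUNX1.

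Along RUNX1, 60 of the 89 distal regions lay upstream of P1. So did 30 of the 38 gained at 72 h and 28 of the 45 with a solvent peak. In the stretch downstream of P2, which holds the Runt domain exons, 4 of 18 distal regions with a peak in either list were gained at 72 h, or 22.2% (9.0 to 45.2). Between P2 and P1 it was 4 of 7, and upstream of P1 30 of 58, or 51.7% (39.2 to 64.1). Within the first 100 kb upstream of P1 it was 5 of 6, and beyond that 25 of 52, or 48.1% (35.1 to 61.3). The summed scaled AUC of distal regions at 72 h was 1.33 times solvent downstream of P2, 3.07 times between P2 and P1, and 2.04 times upstream of P1. These factors count a region with no solvent peak as 0 in solvent, which was not measured. Between P2 and P1 only 3 regions had a solvent peak. In regions with a solvent peak the sums went from 21015 to 26448, from 1127 to 1956 and from 21471 to 31532. The strongest distal region of the gene, a region of an intron downstream of P2 (chr21:34807369-34809135), was open from the start, with an AUC of 5216 in solvent and 8345, 8420 and 8359 at 6, 24 and 72 h (0.24, 0.31 and 0.43 scaled).

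The 5 RUNX1 regions gained with the largest area were each present from 6 h on. The region at -111 kb (chr21:35159725-35160303), whose window with 2 AP-1 motifs and a SMAD palindrome is printed above, had an AUC of 974, 1390 and 1369 at 6, 24 and 72 h. The region at +226 kb (chr21:34822957-34823318), with 3 AP-1 motifs, had 556, 1205 and 985. The other three lie far upstream. At -205 kb (chr21:35254046-35254705) the AUC was 838, 767 and 944, at -689 kb (chr21:35738399-35738967) it was 701, 805 and 898, and at -303 kb (chr21:35352143-35352436) it was 621, 1047 and 772. Solvent had no peak in any of these 5, which means an AUC under the authors' threshold of 200 or no call, not a measured 0.

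Regions of RUNX1 that were open before treatment also had more area under TGFβ1. Over the 45 distal regions with a peak in both lists, the median ratio was 0.27 at 6 h (0.17 to 0.56, an order-statistic 95% interval over regions, which are not replicates), 0.45 at 24 h (0.28 to 0.60) and 0.56 at 72 h (0.24 to 0.68). The median over all distal regions was 0.12, 0.23 and 0.27, below the interval at 6 and 24 h and inside it at 72 h. Of the 45, 14, 17 and 21 were raised past 1.5-fold at 6, 24 and 72 h and none was lowered, where 14.5%, 25.5% and 29.3% of all distal regions in both lists were raised and 1.55%, 3.46% and 4% were lowered. A ratio above 0 was seen in 38 of 45 (84.4%) at 72 h, against 73.3% of all distal regions in both lists. The summed scaled AUC of the distal regions was 43613 before and 59451, 69606 and 75299 after 6, 24 and 72 h, the last 1.73 times solvent. Of this last sum, 15363 came from regions with no solvent peak and 59936 from the 45 that had one. The log2 ratio of the summed distal AUC at 72 h was 0.79 at RUNX1. Its median over the 1272 protein-coding genes with at least 20 distal regions was 0.46.

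The median ratios depend on peak width. The AUC per base of peak gave a median of 0.20 (0.12 to 0.42) for RUNX1 at 72 h and 0.12 for all distal regions. Without scaling the median was 0.80 for RUNX1 and 0.52 for all.

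Single regions of RUNX1 went further. Among those with a solvent AUC of at least 500, the largest rise was at -730 kb (chr21:35779666-35780202), with 565 in solvent and 1097, 1794 and 1906 at 6, 24 and 72 h, or 0.52, 1.29 and 1.51. Weaker solvent peaks, singled out after their values were seen, reached 2.37 at -326 kb (chr21:35375102-35375505; AUC 209, 559, 1213 and 1285) and 2.10 at +184 kb (chr21:34865416-34866326; AUC 223, 1028, 1093 and 1131). Both solvent values stood near the threshold of 200. The largest fall by the same rule was at -120 kb (chr21:35168630-35169160), with 719, 1200, 863 and 699, or -0.29 at 72 h, short of 1.5-fold.

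**Figure D3:**
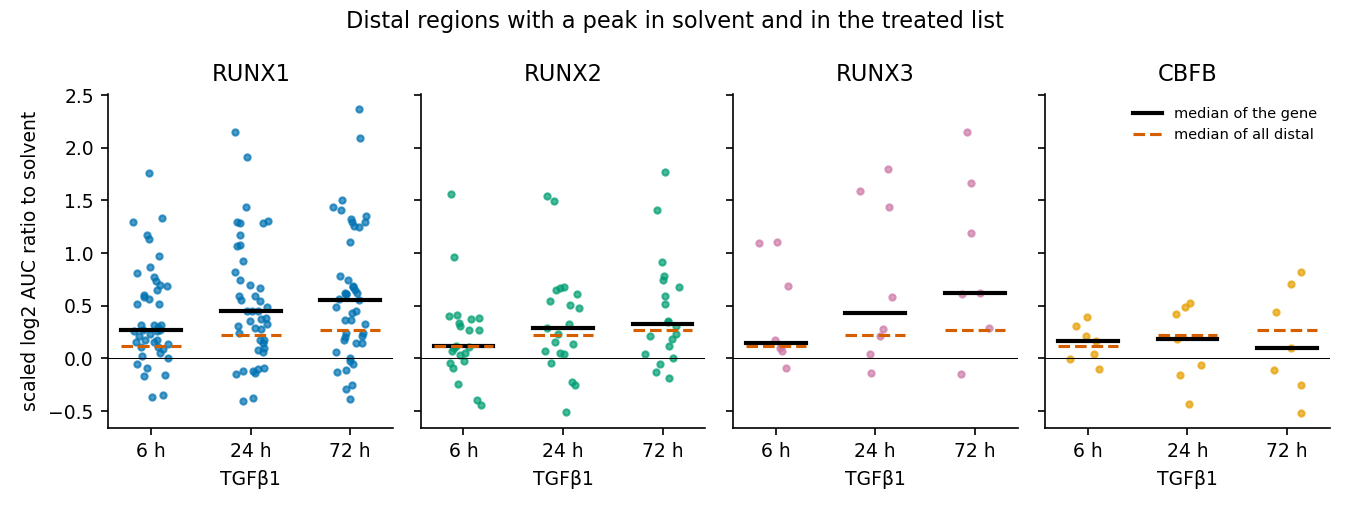
Scaled log2 AUC ratio to solvent of each distal region (points) that has a peak in solvent and in the treated list, at 6, 24 and 72 h; the black bar is the median of the gene and the dashed bar that of all distal regions. RUNX1 (0.56) and RUNX3 (0.62) have medians at 72 h above that of all distal regions (0.27), RUNX2 (0.33) is close to it and CBFB (0.10) below.

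The P1 and P2 start sites of RUNX1 had different courses. At P1 (chr21:35048710-35049567, over the first exon of the distal transcripts) the AUC was 308 in solvent and 1463, 1972 and 1837 under TGFβ1 for 6, 24 and 72 h, so that each TGFβ1 list stood far above solvent. The scaled ratio was 1.81, 2.30 and 2.33, on a solvent value not far above the threshold of 200. At P2 (chr21:34887788-34890485, over the 5′ UTR of the proximal transcripts) the AUC was 8494, 11135, 10476 and 9592, and the scaled ratio -0.05, -0.08 and -0.07. The P2 peak was the larger in every list, with a scaled AUC of 8084 at 72 h against 1548 at P1. The background was all regions within 500 bp of an annotated start site of any gene type. Over the 19926 of them with a peak in both lists at 72 h, the median ratio was -0.05 and 7.90% were raised. Their 5th to 95th percentiles ran from -0.42 to 0.79, so that P1 lay outside this range and P2 inside it.

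The P1 peak was also wider in the TGFβ1 lists. It spanned 265 bp in solvent and 795, 801 and 851 bp at 6, 24 and 72 h. Per base of peak the scaled ratio was 0.37, 0.83 and 0.72, lower than for the whole area but past 1.5-fold at 24 and 72 h. The regions on either side of P1 were already open. The one at +1.63 kb (chr21:35046841-35048607) had an AUC of 2483, 4183, 3904 and 3685 (0.31, 0.27 and 0.32), and the one at -2.16 kb (chr21:35051082-35051854) had 1952, 2567, 2687 and 2543 (-0.05, 0.08 and 0.13). At the start of a further transcript near P2 (chr21:34886738-34887331) a peak was called at 6 h only, with an AUC of 339. The windows around the P1 and P2 summits are shown because the pair of promoters differ in their values.
RUNX1 P1 summit (chr21:35048776-35048976): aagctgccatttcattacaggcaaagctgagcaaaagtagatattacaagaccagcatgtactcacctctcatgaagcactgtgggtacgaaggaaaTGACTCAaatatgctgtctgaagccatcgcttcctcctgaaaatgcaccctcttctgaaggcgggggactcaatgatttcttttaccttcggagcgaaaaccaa
RUNX1 P2 summit (chr21:34888051-34888251): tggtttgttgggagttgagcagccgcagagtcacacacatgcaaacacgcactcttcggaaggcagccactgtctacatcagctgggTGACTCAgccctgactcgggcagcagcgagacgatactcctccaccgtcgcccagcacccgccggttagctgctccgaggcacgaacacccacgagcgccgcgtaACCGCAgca
The P1 window holds 1 AP-1 motif and no RUNX motif, and the P2 window 1 AP-1 and 1 RUNX motif.

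At RUNX2 the start site with a peak was P2. There (chr6:45421458-45423517, over the 5′ UTR of the proximal transcripts) the AUC was 2168 in solvent and 3570, 3539 and 2465 at 6, 24 and 72 h, with ratios of 0.28, 0.33 and -0.06. The 6 and 24 h values were the high ones, but none was past 1.5-fold, and the region also covers the start of ENSG00000271857, from which it cannot be told apart. No list had a peak within 500 bp of the RUNX2 P1 starts. The largest region in the window, with 4134 in solvent and a ratio of 0.00 at 72 h, lies in a RUNX2 intron at a start site of SUPT3H (chr6:45377025-45378589).

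Distal regions of RUNX2 moved in both directions. The largest rise among the 20 present in solvent and at 72 h was in an intron near the 3′ end of the gene, at +322 kb (chr6:45650456-45651096), with 416, 1104, 1530 and 1687, or 0.97, 1.499 and 1.77. It was singled out after its values were seen, since its solvent AUC was below 500. By the rule with that minimum, the largest rise was 0.78, at +369 kb beyond the gene (chr6:45697604-45697969; 593, 997, 1095 and 1210), and the largest fall -0.18 (chr6:45631403-45631791; 1144, 1309, 1252 and 1194). The median of the 20 was 0.33 (0.12 to 0.68), 7 were raised and none was lowered. Of all distal regions in both lists at 72 h, 29.3% were raised and 4% lowered. The 3 lost regions were weak. At +150 kb (chr6:45477838-45478058) the AUC was 433, 577 and 397 before the peak was absent at 72 h, at +280 kb (chr6:45607856-45608170) it was 302 and 386 with no peak at 24 and 72 h, and at +400 kb (chr6:45727896-45728123) 202 in solvent alone. The 2 leading gains had 525, 437 and 451 at +297 kb (chr6:45625232-45625639) and 346, 484 and 306 at +109 kb (chr6:45437274-45437461).

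RUNX3 had no peak within 500 bp of either start site in any list. The nearest ones were weak, at -1.83 kb from P1 (chr1:24966748-24966966; AUC 306, 508, 595 and 548) and near P2 (chr1:24932309-24932520; 343, 483, 441 and 432), with ratios at 72 h of 0.59 and 0.08. Its introns were a different matter. At +9.69 kb from P1 (chr1:24955089-24955656) the AUC was 380 in solvent and 1109, 1724 and 2007 at 6, 24 and 72 h, or 1.10, 1.80 and 2.15. At +15.6 kb (chr1:24949137-24949890) it was 440, 1280, 1721 and 1655, or 1.10, 1.59 and 1.67. The region between them and P2, at +17.6 kb (chr1:24947362-24947599), had no peak in solvent or at 6 h, and 463 and 642 at 24 and 72 h. These 3 neighbours lie within the stretch between P1 and P2, each with a RUNX and an AP-1 motif within 100 bp of its summit. The pair with solvent peaks was chosen after their values were seen.

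Upstream of RUNX3 a second group was seen. The largest gained region, at -66 kb (chr1:25030673-25031150), had 800, 1133 and 1306 at 6, 24 and 72 h. A region at -58 kb (chr1:25022333-25023337), counted as proximal because it lies 166 bp from the MIR4425 start, had 1729, 3154, 3387 and 3723, or 0.43, 0.59 and 0.86. By the rule with a solvent AUC of at least 500, the largest rise was at -67 kb (chr1:25032191-25032637), with 581, 859, 1135 and 1063, or 0.62 at 72 h, and the largest fall -0.15 at +117 kb (chr1:24847806-24848546; 918, 1175, 1228 and 984). The 1 lost region (chr1:24830779-24830976) lies in an intron of CLIC4, with 214, 313 and 254 before 72 h. The summed scaled AUC over the 13 distal regions was 3441, 5618, 8111 and 8818, the last 2.56 times solvent. This was the largest factor of the 4 genes, on the smallest sum in solvent. Of the 8818, 2529 came from regions with no solvent peak, which count as 0 in solvent, and 6288 from those with one. Raised at 72 h were 5 of 7 regions in both lists, against 29.3% of all distal regions in both lists.

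**Figure D4:**
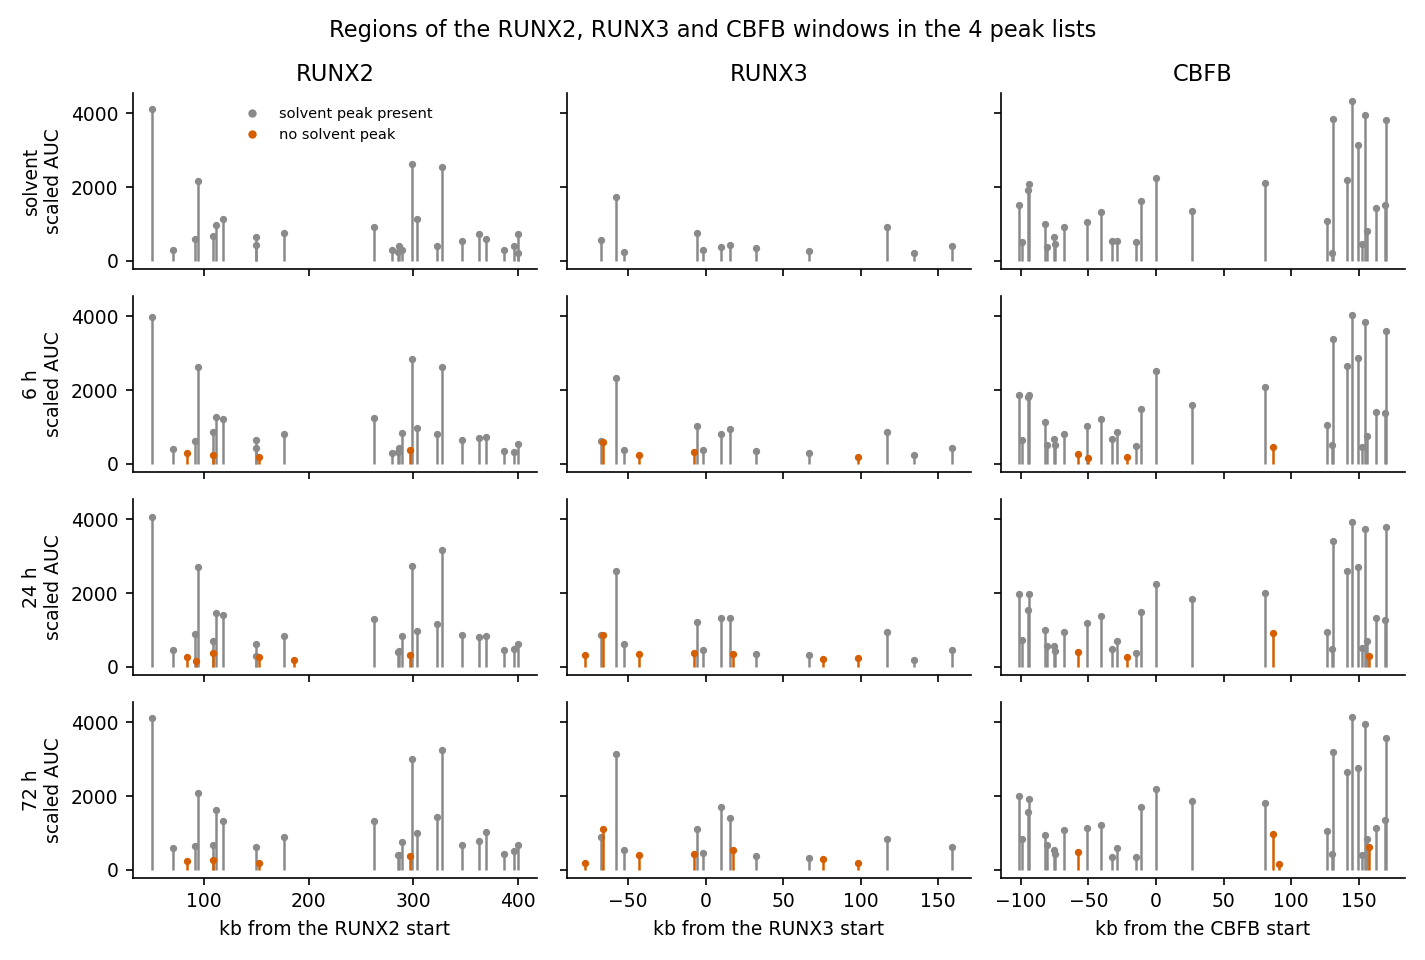
Regions of the RUNX2, RUNX3 and CBFB windows by distance from the P1 start, or the CBFB start, in kb (horizontal axis) and scaled AUC (height), in the solvent, 6, 24 and 72 h lists from top to bottom. At RUNX3 the stems at +9.69 and +15.6 kb go from 380 and 440 in solvent to 1691 and 1395 at 72 h, while the proximal regions of the CBFB window have a median scaled log2 ratio of -0.09 at 72 h.

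CBFB sat among other genes. Its window holds 15 other protein-coding genes, against 3 at RUNX1 and 1 each at RUNX2 and RUNX3, and 26 of its 36 regions were proximal. The CBFB promoter (chr16:67028720-67030043) had an AUC of 2253, 3404, 2942 and 2597, with ratios of 0.15, 0.00 and -0.04. The one region inside an intron of CBFB (chr16:67055592-67056128) had 1367, 2156, 2379 and 2201, or 0.22, 0.42 and 0.44. The larger of the 2 gains lies in an intron of PHAF1 (chr16:67115657-67115957; 626, 1197 and 1147), and the other in an intron of CES3 (chr16:66971224-66971640; 375, 512 and 559). Among distal regions with a solvent AUC of at least 500, the largest rise was 0.70 (chr16:66930213-66930524; 516, 866, 943 and 997), nearest to the CIAO2B start. A weaker distal region, singled out after its values were seen, had 0.82 (chr16:66948138-66948668; 384, 688, 720 and 808). The largest fall with the same minimum was -0.51 (chr16:67013772-67014465; 514, 653, 495 and 427). The median of the 7 distal regions in both lists was 0.17, 0.18 and 0.10 at 6, 24 and 72 h. At 72 h 2 of the 7 were raised, against 29.3% of all distal regions in both lists. The CBFB median at 72 h was -0.04 with a window of 50 kb and also when the lists were scaled on all shared regions, so its direction is not settled. Without scaling, the ratio at 72 h was 0.20 at the CBFB promoter, 0.18 at RUNX1 P2 and 0.19 at RUNX2 P2, opposite in sign to the scaled values given above.

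The motif content of the members was set beside that of all distal regions, in the same 201 bp windows. Of the 38 RUNX1 regions gained at 72 h, 18 held an AP-1 motif, or 47.4% (32.5 to 62.7), against 40.8% of all 27079 gained distal regions. A RUNX motif was found in 3, or 7.89% (2.72 to 20.8), against 23.0%. A SMAD palindrome was found in 2, or 5.26% (1.46 to 17.3), against 1.19%. The TEAD motif (GGAATG) was in 6 (15.8%, against 19.2%), the E-box CACCTG in 6 (15.8%, against 14.1%) and the ETS motif (CCGGAA) in none (against 1.94%). Over the 45 RUNX1 regions with a peak in every list, 5 held a RUNX motif, or 11.1% (4.84 to 23.5), against 20.6%.

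RUNX3 had larger motif shares in the summit windows. Of its 13 distal regions, 7 held a RUNX motif, or 53.8% (29.1 to 76.8), against 20.9% of all distal regions. An AP-1 motif was in 8, or 61.5% (35.5 to 82.3), against 37.5%, which lay inside the interval. With whole peaks searched, 6 held a RUNX motif, or 46.2% (23.2 to 70.9), against 33.5%, again inside the interval. In the summit windows of RUNX2, 4 and 12 of 28 held a RUNX and an AP-1 motif, and at CBFB 1 and 4 of 10. The median GC content of the windows was 56.7% at RUNX3, 47.3% at RUNX1 and 46.3% over all distal regions, and its part in the motif shares was not tested.

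Partners of RUNX factors were examined by role, as a list of 29 genes. A promoter peak was present in solvent for 27 of them, the exceptions being the corepressor genes RUNX1T1 and CBFA2T3, and at 72 h for 26, since the weak ESR1 peak (298 in solvent, 502 and 393 at 6 and 24 h) was no longer called. None of the 26 promoters with a ratio was raised or lowered past 1.5-fold at 72 h, and their median ratio was -0.05. At least 1 distal region was gained at 72 h around 26 of the 29 genes, with a median share of 25%, and 13 of 29 had a share above the background. That background pools regions and is not a share per gene. Over the 1272 protein-coding genes with at least 20 distal regions, the median share was 29.2%. The partners were not held to that minimum, and no such counts were made over all genes, so these counts set the partners apart in nothing. The largest shares were 80% at RUNX1T1 and 75% at PRMT1, with 4 and 3 regions gained. Each has only 5 distal regions. At PRMT1 not all of them had a peak in solvent or at 72 h, the base of the share. SMURF2, which encodes a ubiquitin ligase of the TGFβ pathway, gained 13 regions, or 65%. ETS1, whose product binds DNA together with RUNX1, gained 11 (42.3%). Around the SMAD genes the count was 6 at SMAD2 (35.3%), 3 at SMAD3 (16.7%) and 1 at SMAD4 (9.09%), so that none of the 3 had a share above the background of 35.4%. Of the Hippo coactivator genes, YAP1 gained 8 (42.1%) and WWTR1 3 (15%).

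Other genes shared the course of RUNX1. Its summed scaled distal AUC had log2 ratios to solvent of 0.45, 0.67 and 0.79 at 6, 24 and 72 h. Over these 3 ratios the nearest of 1270 other protein-coding genes with at least 20 distal regions were SEMA3A (0.46, 0.66 and 0.81; Euclidean distance 0.0337), ERG on the same chromosome (0.46, 0.70 and 0.81; 0.0363) and PPP3CA (0.47, 0.64 and 0.80; 0.0423). A distance within 0.1 was found for 61 genes.

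The limit of 100 kb is a threshold, and the regions just inside and just outside it had the following values. At the CBFB window, the last region inside on the left had an AUC of 1509, 2521, 2579 and 2369 at 99.9 kb from the body, and the first outside, at 101.5 kb, had 980, 1586, 1579 and 1876. At RUNX1 the last one inside on the right, at 99.7 kb, had no solvent peak and 332, 520 and 299, and the first outside, at 108 kb, had 536, 771, 804 and 710. At RUNX2 on the right these stood at 64.4 kb (724, 723, 809 and 789) and 119 kb (1022, 1238, 1255 and 1273), and at RUNX3 on the left at 93.7 kb (405, 579, 613 and 735) and 113 kb (291, 383, 292 and 335).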

How the data were processed

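Per the methods of the study and the submitters' processing notes, the authors used Trimmomatic 0.38 to trim the reads and Bowtie2 2.4.5 to align them to GRCh38, handled the alignments with SAMtools 1.4.1 and Picard, and called peaks with Genrich 0.5 on both libraries of a condition together. The deposited signal value is the AUC of a peak above the caller's threshold; it grows with depth and width and was not scaled between lists. The deposited −log10 q values were not tested, and the deposited summit positions served the motif search. Each list was given its condition by its deposited name. The labels place solvent at time 0, while a legend of the study gives 72 h. The authors' read counts per replicate were not used here.

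Peaks were merged over 1 bp or more, and genes and start sites were taken from GENCODE 44, in which the 4 genes are ENSG00000159216 (RUNX1), ENSG00000124813 (RUNX2), ENSG00000020633 (RUNX3) and ENSG00000067955 (CBFB). Lists were scaled on 32923, 32594 and 32098 regions. No test was made, since the lists analysed here give 1 value per condition. The procedure was tested on simulated lists. Members and gene lists were chosen with earlier results of these data known. Named were the promoters, the 5 gained regions of largest scaled 72 h AUC at RUNX1 and 2 at each relative, per gene the largest rise and fall (solvent AUC at least 500), lost regions up to 3 per gene, the regions at the window edges and the 3 genes nearest to RUNX1 in course. Alternatives covered a minimum AUC of 400, windows of 50 and 200 kb, lists of equal length, a distal limit of 1 kb, peaks shared only where they overlap by 50% of each, the nearest protein-coding TSS, other scalings, the AUC per base, whole peaks for motifs and, added after the data were seen, a RUNX1 body ending at P1. Software was pandas 2.3.3, numpy 2.4.6, matplotlib 3.10.9 and scipy 1.17.1 under Python 3.11.15.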

Additional observations from a re-analysis of the deposited data

How the results depend on the processing

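No paired analysis was possible because the files analysed here are peak lists that pool both libraries of a condition. For the same reason no library could be left out. Of 105 alternative values at 72 h, 92 stayed within the interval of the reported share or median, within 1.5 times of a count, or, at a promoter, less than 1.5-fold away and on the same side of that fold. Among them 6 had the opposite sign of a reported value near 0. The CBFB median was -0.04 with a window of 50 kb and with scaling on all shared regions. Without scaling the ratios were 0.18 at RUNX1 P2, 0.19 at RUNX2 P2 and 0.20 at the CBFB promoter, the last also 0.015 per base. The other 13 are given here. With lists of equal length, gained regions numbered 18 (28.6%) at RUNX1, 1 (4.17%) at RUNX2 and 3 at RUNX3. With a window of 200 kb RUNX2 gained 7 regions, and with one of 50 kb CBFB gained 1. By the nearest protein-coding TSS CBFB gained 0 (0%). With the RUNX1 body ending at P1, RUNX1 gained 13. The median ratio of RUNX1 was 0.80 without scaling and 0.20 per base, and the ratio of its P1 was 0.72 per base. Shared regions of all kinds as the base for scaling moved the scaling at 72 h from 0.25 to 0.39 on the log2 scale. The cause of these shifts was not tested beyond what each alternative changes. The main limits are the single pooled list per condition, the depth not given per list, the caller's threshold of 200 that turns weak signal into absence, and windows that differ in length and hold other genes.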
